A study of Mus musculus with 12 samples.

Results

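The genes described here are 37 mouse genes of epithelial junctions and of epithelial to mesenchymal transition, out of 54146 genes in the table. They were chosen by name and not by their levels, though with earlier results of these data known. They form 2 sets that are treated apart: 27 epithelial members (adhesion and tight junction genes, keratins, epithelial transcription factors, desmosome genes and surface proteases with their inhibitors) and 10 mesenchymal members (Cdh2, Vim, the Zeb, Snai and Twist factors, Prrx1 and Acta2). The RNA came from D2A1 cells, a mouse mammary carcinoma line, that carried a doxycycline-inducible H2B-GFP and the membrane dye CellVue Claret (CVC), which is diluted at each division. Cells were injected into the tail vein and sorted from the lungs of the host as GFP+CVC-positive (dormant) or GFP+CVC-negative (growing) cells. The hosts were female mice aged 6 to 8 weeks at use, labelled WT (floxed controls in the study's methods) or KO, and in the KO hosts a floxed Tgfbr2 was deleted by Cre from the Lysozyme 2 promoter (LysM-Cre), that is, in host myeloid cells, and not by design in the injected tumour cells.

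Each of the 4 groups (dormant WT and growing WT, dormant KO and growing KO) had 3 libraries. The same tumour line was injected in all 4 groups, so the Tgfbr2 level of the sorted cells does not check the host labels. All WT libraries were of library batch 1 and all KO libraries of batch 2, so wherever hosts are compared the host and the batch cannot be told apart, while both comparisons of states lie within 1 batch.

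Epithelial cells hold together through adherens junctions built on E-cadherin, tight junctions built on claudins and occludin, and desmosomes anchored to keratin filaments. In epithelial to mesenchymal transition, transcription factors of the Snai, Zeb and Twist families lower such genes, and cells gain vimentin and N-cadherin. Keratins work as pairs of a type I and a type II chain: Krt18 and Krt19 are type I, Krt7 and Krt8 are type II, and all are found in simple epithelia such as those of mammary gland and lung. Prrx1 is a homeobox factor of mesenchymal cells, and Acta2 encodes the smooth muscle actin of muscle cells and myofibroblasts.

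The promoters of the members are shown first, because the Zeb and Snai factors are known to bind the E-box letters CACCTG, which read as CAGGTG on the opposite strand. Each window ran from 250 bases before to 50 bases after a RefSeq start on GRCm38.p6, and 24 of the 37 members had a window. The letters were present on either strand in 13 of 17 epithelial members with a window (76.5%), in 1 of 7 mesenchymal members (14.3%, Snai1) and in 6098 of 27025 genes with a window (22.6%). These shares are a description of the letters in the windows and not of any factor's binding. The stretches below lie before the start and outside annotated exons, with the letters in capitals: Spint2 and Epcam show windows with several matches, Krt18 one with 1 match, and Cldn7 (at the first of its starts) and Twist1 windows with none. Another start of Cldn7 has 2 matches, and Krt8 has 1.

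Spint2 (chr7:29281978-29282227, minus strand): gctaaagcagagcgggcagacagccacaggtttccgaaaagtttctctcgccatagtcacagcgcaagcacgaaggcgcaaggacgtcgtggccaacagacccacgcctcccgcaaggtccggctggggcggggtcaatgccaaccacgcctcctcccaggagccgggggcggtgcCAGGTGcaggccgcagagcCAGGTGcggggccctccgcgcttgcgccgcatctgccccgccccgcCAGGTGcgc
Epcam (chr17:87635729-87635978, plus strand): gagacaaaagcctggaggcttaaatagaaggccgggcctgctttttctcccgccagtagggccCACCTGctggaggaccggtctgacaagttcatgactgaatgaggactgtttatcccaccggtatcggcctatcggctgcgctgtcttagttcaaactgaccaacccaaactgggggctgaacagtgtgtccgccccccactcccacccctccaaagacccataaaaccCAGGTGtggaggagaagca
Krt18 (chr15:102027966-102028179, plus strand): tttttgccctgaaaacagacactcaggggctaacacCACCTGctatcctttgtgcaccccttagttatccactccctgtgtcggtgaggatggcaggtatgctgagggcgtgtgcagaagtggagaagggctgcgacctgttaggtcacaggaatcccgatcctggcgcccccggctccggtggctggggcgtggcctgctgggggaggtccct
Cldn7 (chr11:69964529-69964778, plus strand): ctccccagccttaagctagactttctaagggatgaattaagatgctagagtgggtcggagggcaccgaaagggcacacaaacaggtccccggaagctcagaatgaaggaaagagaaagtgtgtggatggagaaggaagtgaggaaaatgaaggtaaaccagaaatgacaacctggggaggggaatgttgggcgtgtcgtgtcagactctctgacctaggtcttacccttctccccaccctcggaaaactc
Twist1 (chr12:33957421-33957670, plus strand): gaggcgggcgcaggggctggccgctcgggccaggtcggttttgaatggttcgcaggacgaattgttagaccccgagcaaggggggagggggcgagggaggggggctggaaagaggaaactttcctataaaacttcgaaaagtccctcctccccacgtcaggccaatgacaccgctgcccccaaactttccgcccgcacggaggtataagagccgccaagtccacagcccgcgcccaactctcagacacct

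Levels are given as transcript abundance values (TPM), each scaled by gene length so that the values sum to about 1000000 in each library. Differences are on the log2(TPM + 1) scale from a limma fit of all 12 libraries, and a gene was called at a difference of at least 1 and a p, adjusted by Benjamini-Hochberg, of at most 0.05. Where the values of a group are at or near 0, the size of a difference depends on the pseudocount of 1. By the paper's methods the input was a small aliquot of sorted cells, so a 0 does not show absence of expression. Of 54146 genes, 13002 reached 1 TPM in at least 3 libraries and were tested. TPM keeps no sequencing depth, so the depth of each library is unknown and no counting interval is given. Library agreement differed by group: the correlation across genes between libraries of 1 group ran from 0.666 to 0.715 in dormant WT, 0.866 to 0.882 in dormant KO, 0.949 to 0.952 in growing WT and 0.914 to 0.922 in growing KO. Genes above 0 numbered 11325 to 13242 in dormant WT, 14770 to 15315 in dormant KO, 14352 to 14475 in growing WT and 13406 to 14063 in growing KO.

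The dormant KO libraries stood apart from all others in markers of lung cell types. The summed level of 10 alveolar type 2 markers (surfactant proteins and their partners) was 40152 to 42510 TPM in dormant KO, 48.9 to 141 TPM in dormant WT, 56.1 to 97.6 TPM in growing WT and 459 to 468 TPM in growing KO. All 10 were above 0 in every dormant KO library. Most of the dormant KO sum was Sftpc, at 36570.5 to 39283.9 TPM, while Abca3 was 0.7 to 2.69 TPM against 0 to 9.25 TPM in dormant WT. The sum of 9 alveolar type 1 markers was 1678 to 2123 TPM in dormant KO and 298 to 432 TPM across the other 9 libraries. Most of the latter was Cav1, at 255 to 345 TPM, which was 540 to 894 TPM in dormant KO. The sum of 11 mesothelial markers was 1670 to 2072 TPM in dormant KO, at most 55.6 TPM in dormant WT, at most 26.7 TPM in growing WT and 95.8 to 178 TPM in growing KO. Compared with dormant WT, all 11 mesothelial markers were called higher, where 12.9% of all tested genes were, but 5 of them were tested only through their dormant KO values. Called higher likewise were 8 of 10 tested alveolar type 2, 7 of 9 alveolar type 1 and 6 of 9 club and ciliated markers. So were 7 of 12 fibroblast and pericyte and 8 of 10 endothelial markers. Of these, 4, 2, 1, 2 and 3 in turn were tested only through dormant KO. The club and ciliated sum (10 markers) was 1993 to 2545 TPM in dormant KO against 8.59 to 306 TPM in dormant WT, the fibroblast and pericyte sum (14 markers) 1881 to 2142 TPM against 121 to 229 TPM, the endothelial sum (10 markers) 963 to 995 TPM against 11.4 to 127 TPM, and the macrophage and leukocyte sum (11 markers) 3825 to 4173 TPM against 1297 to 1766 TPM. Of the last list, 4 of 10 tested markers were called higher (1 of them tested only through dormant KO), and most of its sum was Lyz2, at 2833 to 2944 TPM in dormant KO against 782 to 1407 TPM in dormant WT, while Ptprc was 23.4 to 25.4 TPM against 13.5 to 46.6 TPM. Lung epithelium and mesothelium also express many of the epithelial members, and fibroblasts express mesenchymal ones. Every comparison below that includes dormant KO also differs in these sums, whichever way a member goes, and their part in any result was not tested. Markers of mammary epithelium had a low sum in all groups, at 11.2 to 51.7 TPM over 11 markers. Pgr, Csn2 and Wap were listed at 0 in every library, while Gata3 was above 0 in each, at 1.42 to 10.98 TPM. Areg was at most 4.9 TPM in dormant KO and reached 35.9 TPM in dormant WT and 43.4 TPM in growing KO. Csn3 reached 23.6 TPM in dormant KO and was at most 5 TPM elsewhere. Of 3 tested mammary markers, 1 was called lower and 0 higher when dormant KO was set against dormant WT. The counts against growing KO were the same.

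**Figure D1:**
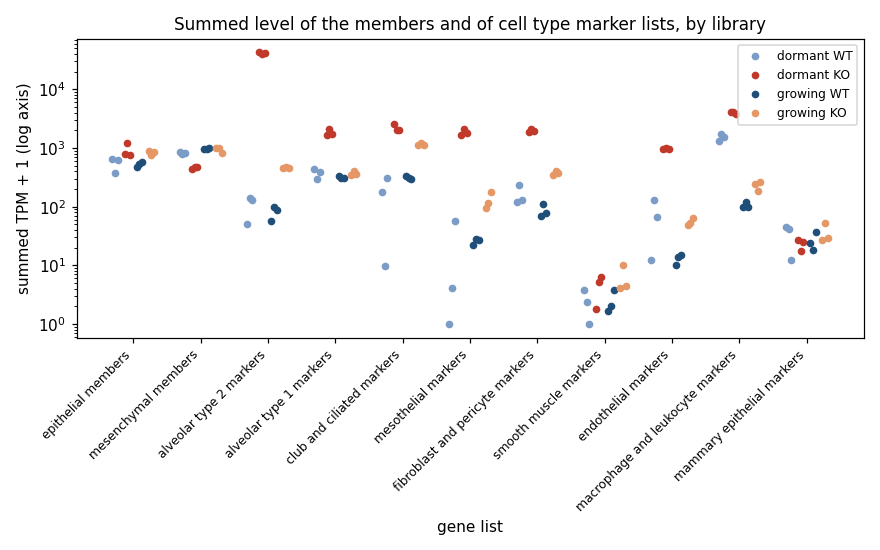
Summed TPM plus 1 (log axis) of the members of each set and of 9 lists of cell type markers, with 3 points per group, 1 for each library. The dormant KO points (red) lie above those of the other 3 groups for the alveolar, club and ciliated, mesothelial, fibroblast, endothelial and leukocyte lists, and below them for the mesenchymal set.

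Of the 27 epithelial members, 25 were above 0 in at least 1 library and 17 passed the filter for testing. Only Krt8, Krt18 and Spint2 reached 1 TPM in every library. Cldn4 and Ovol1 were listed at 0 in all 12 libraries, and Esrp1, a splicing factor of epithelial cells, did not exceed 0.03 TPM. The other untested members reached 1 TPM in 1 or 2 libraries: Krt5 and Krt14 (basal keratins), Grhl2 and Trp63 (epithelial factors), Dsp (a desmosome plaque protein), St14 (the protease matriptase) and Rab25 (a trafficking GTPase). Their highest values were 1.58 TPM for Krt5, 5.45 for Krt14, 1.57 for Grhl2, 1.67 for Dsp, 1.76 for St14 and 18.5 for Rab25, each in a dormant KO library, and 12.8 for Trp63, in a dormant WT library. Of the 17 tested members, 7 would have failed the filter without the dormant KO libraries (Cdh1, Epcam, Cldn7, Krt7, Ehf, Ocln and Spint1), so the number that passed is not support for a difference. Epithelial members at 1 TPM or more numbered 5 to 7 per library in dormant WT, 15 to 20 in dormant KO, 7 to 9 in growing WT and 9 to 12 in growing KO. The 10 mesenchymal members were all above 0 somewhere and 9 were tested, with Vim alone at 1 TPM or more in every library. Cdh2 (N-cadherin), the untested one, was 1.18 TPM in 1 dormant KO library, 1.43 TPM in 1 growing KO library and 0 in the rest. Of the tested mesenchymal members, Snai2 would have failed the filter without dormant KO.

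**Figure D2:**
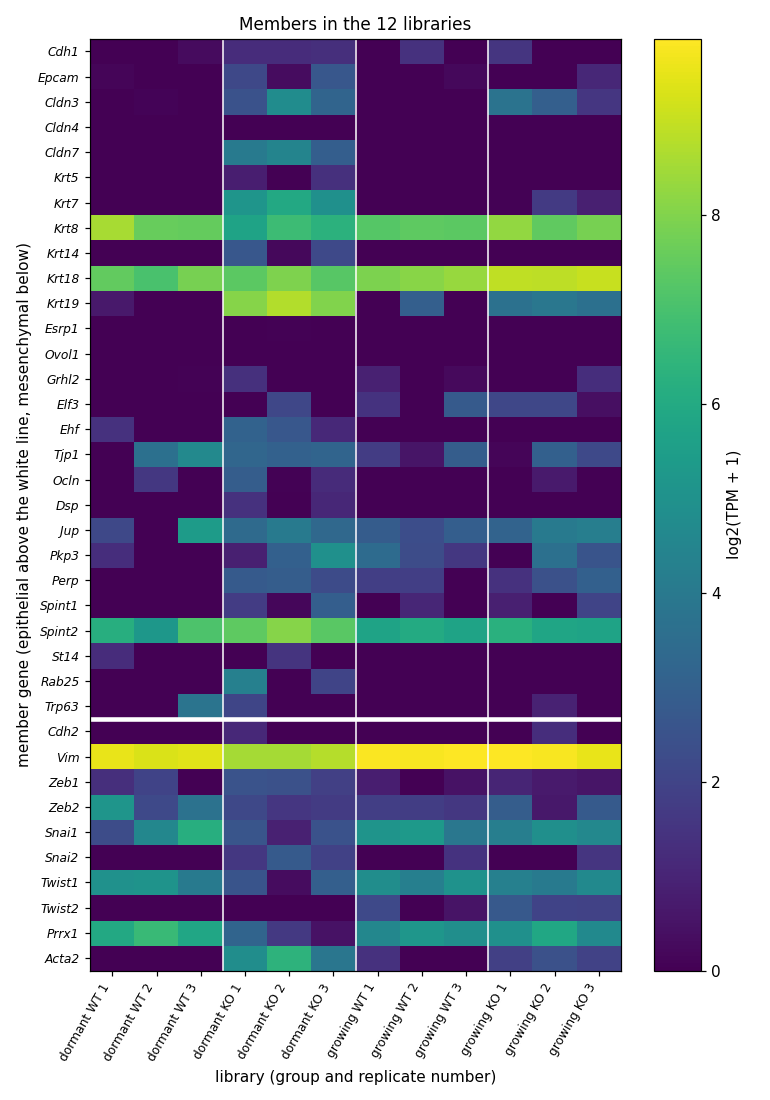
log2(TPM + 1) of the 37 members (rows; 27 epithelial above the thick white line, 10 mesenchymal below) in the 12 libraries (columns, by group and replicate number). Krt7, Krt19 and Cldn7 are bright in the 3 dormant KO columns and dark in most others, Krt8, Krt18 and Vim are bright in all columns, and Prrx1 and Twist1 are darker in dormant KO than in the other groups.

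Setting the dormant cells of KO hosts beside those of WT hosts asks how the host's myeloid deletion goes with the levels in cells that kept the dye. In the epithelial set, 8 of 17 tested members were higher in dormant KO, 1 was lower and 8 were not called, where 12.9% of all tested genes were called higher and 9.39% lower. Of the 8 higher members, 4 (Krt7, Cldn7, Epcam and Ehf) passed the filter only through dormant KO. Over the 10 members that pass it without dormant KO, 4 were higher and 1 lower, with a median difference of 1.27 beside 0.17 over all genes. The 8 higher members were Krt7, Krt19, Cldn3, Cldn7, Perp, Spint2, Epcam and Ehf, and the lower one was Krt8. In the mesenchymal set 2 of 9 were higher (Acta2, Snai2), 2 lower (Prrx1, Twist1) and 5 were not called, and Snai2 passed the filter only through dormant KO. These members were chosen as the named genes of their pathways, with earlier results known, and the counts describe them only. In bulk samples, fewer cells of a type and less RNA per cell cannot be told apart.

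Among keratins, the type I gene Krt19 (ENSMUSG00000020911, chromosome 11, 100140810 to 100148665) differed most. Its level was 267, 418 and 252 TPM in dormant KO, 0.59, 0 and 0 TPM in dormant WT, 0, 7.02 and 0 TPM in growing WT and 11.9, 14.2 and 11.3 TPM in growing KO. The dormant KO libraries lay above all others, with no overlap. The difference from dormant WT was 8.03 ± 0.75 (SE), with a limma adjusted p of 2.03e-05. Because 2 of the 3 dormant WT values are 0, its size depends on the pseudocount and ran from 5.90 to 10.6 over the alternative fits.

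Krt7 (ENSMUSG00000023039, chromosome 15, 101411043 to 101430313), a type II keratin of simple and glandular epithelia, was 34.2, 61.5 and 29.6 TPM in dormant KO. All 6 libraries from WT hosts listed it at 0, and the growing KO values were 0.03, 2.18 and 0.83 TPM. Every dormant KO value was thus above every other value, and the limma adjusted p against dormant WT was 2.28e-05. No fold is given against a group listed at 0.

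The other keratin pair behaved differently. Krt8 (ENSMUSG00000049382, chromosome 15, 101996698 to 102004482) was 52.1, 106 and 79.9 TPM in dormant KO against 381, 188 and 183 TPM in dormant WT, and 153, 168 and 166 TPM in growing WT and 306, 176 and 226 TPM in growing KO. All 3 dormant KO values lay below all 9 others. The difference from dormant WT was -1.62 ± 0.35 (SE, limma adjusted p 0.00541). A fit of these 6 libraries alone gave an adjusted p of 0.0597 and ended the call. The pseudogene Krt8-ps, which can share reads with Krt8, was at most 3.81 TPM in any library.

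Krt18 (ENSMUSG00000023043, chromosome 15, 102028180 to 102032027), the usual type I partner of Krt8, was 167, 249 and 159 TPM in dormant KO against 179, 131 and 231 TPM in dormant WT, with overlapping groups. It was 243, 276 and 327 TPM in growing WT and 480, 475 and 519 TPM in growing KO. Its difference between the dormant groups was 0.09 ± 0.25 (SE, limma adjusted p 0.838), and the sign turned without dormant WT replicate 2 (-0.12), without dormant KO replicate 2 (-0.11) and with array weights (-0.01).

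Set against each other per length, the 4 simple keratins had another composition in dormant KO than elsewhere, a description made after the values were seen. Krt19 made up 61.6%, 62.7% and 61.4% of the summed TPM of Krt18 and Krt19 in the dormant KO libraries and at most 2.90% in any other library. Krt7 made up 39.6%, 36.6% and 27.0% of the summed TPM of Krt7 and Krt8 in dormant KO and at most 1.23% elsewhere. The ratio of Krt8 to Krt18 was 0.313, 0.427 and 0.504 in dormant KO, 2.12, 1.44 and 0.794 in dormant WT, 0.508 to 0.630 in growing WT and 0.370 to 0.638 in growing KO. The ratio in dormant KO therefore overlapped with that in growing KO but not with that in dormant WT.

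**Figure D3:**
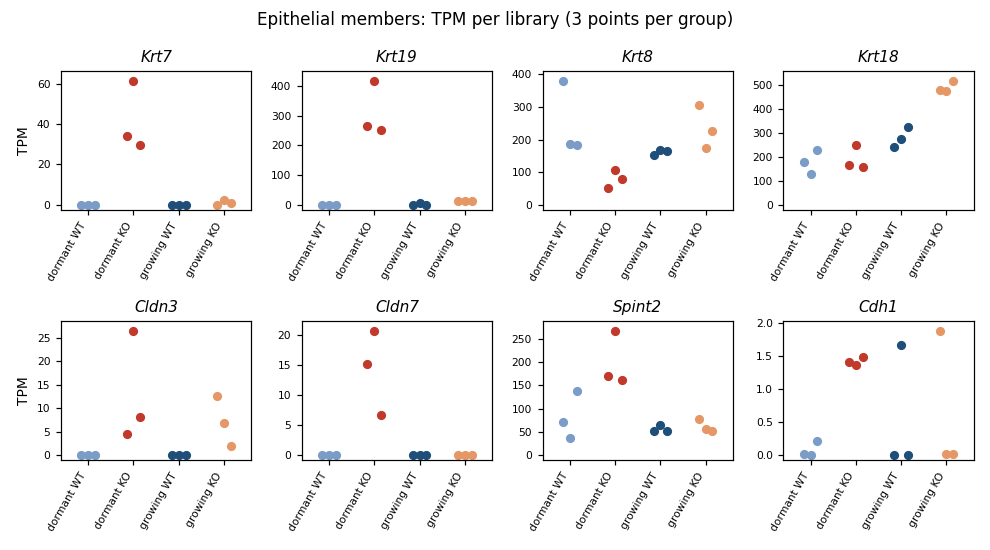
TPM of 8 epithelial members by group, with 1 point for each of the 3 libraries and a linear axis from 0 of its own for each gene. Krt7, Krt19 and Cldn7 have values well above 0 in dormant KO and values at or near 0 elsewhere, Krt8 is lowest in dormant KO, and Krt18 is highest in growing KO at 475 to 519 TPM.

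Of the tight junction genes, Cldn3 (ENSMUSG00000070473, chromosome 5, 134986214 to 134987472) was 4.55, 26.5 and 8.14 TPM in dormant KO against 0, 0.06 and 0 TPM in dormant WT. It was listed at 0 in growing WT and was 12.6, 6.86 and 1.98 TPM in growing KO, so both KO groups lay above both WT groups. The difference between the dormant groups was 3.45 ± 0.67 (SE, limma adjusted p 0.0029), and array weights ended the call (adjusted p 0.0732). The size ran from 1.65 to 6.43 over the alternative fits, since dormant WT is at or near 0.

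Cldn7 (ENSMUSG00000018569, chromosome 11, 69964779 to 69967885), a claudin of lung, gut and kidney epithelium, was 15.1, 20.7 and 6.72 TPM in dormant KO, while the other 9 libraries listed it at 0. It is the 1 tested epithelial member that reached 1 TPM in no library outside dormant KO. Its limma adjusted p against dormant WT was 4.69e-05.

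Ocln (occludin) and Tjp1 (the scaffold protein ZO-1), also of the tight junction, were not called. Ocln ranged from 0.05 to 6.50 TPM in dormant KO and from 0 to 2.01 TPM in dormant WT. Tjp1 was 7.30 to 8.52 TPM in dormant KO and 0 to 24.1 TPM in dormant WT, where the libraries differed more among themselves than from dormant KO.

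For adherens junctions and surface adhesion, Cdh1 (E-cadherin) was low throughout. It was 1.41, 1.37 and 1.48 TPM in dormant KO, 0.01, 0 and 0.22 TPM in dormant WT, 0, 1.66 and 0 TPM in growing WT, and 1.88, 0.01 and 0.02 TPM in growing KO. The dormant KO values lay above those of dormant WT but within the range of both growing groups. The difference of 1.17 ± 0.48 (SE) was not called (limma adjusted p 0.106), and median-ratio scaling and a fit of these 2 groups alone brought it past the threshold.

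Epcam, a surface adhesion protein of epithelial cells, was 3.42, 0.27 and 5.34 TPM in dormant KO against 0.09, 0 and 0 TPM in dormant WT. It was at most 0.16 TPM in growing WT and 1.12 TPM in growing KO. The dormant values did not overlap, and the difference was 1.68 ± 0.53 (SE, limma adjusted p 0.0401). This call was lost in 13 of 17 alternative fits, among them those without any single dormant WT or growing WT library, without growing KO replicate 1 or without growing KO replicate 2 (adjusted p 0.0508 to 0.0739 over these 8).

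Of the surface proteases and their inhibitors, Spint2 (an inhibitor of serine proteases such as matriptase) was 169, 267 and 162 TPM in dormant KO against 71.0, 36.0 and 137 TPM in dormant WT. It was 52.1, 64.7 and 52.3 TPM in growing WT and 76.5, 55.2 and 52.1 TPM in growing KO, so dormant KO lay above every other library. The difference between the dormant groups was 1.44 ± 0.43 (SE, limma adjusted p 0.0309). The call was lost in 8 of 21 alternative fits (adjusted p 0.0551 to 0.153), among them those without dormant WT replicate 2 and without each dormant KO library in turn. Spint1, a related inhibitor, was 2.38, 0.12 and 6.64 TPM in dormant KO with no dormant WT library above 0, and was not called (limma adjusted p 0.114, and 0.0252 without dormant KO replicate 2). Its limma adjusted p rose to as much as 0.374 when another library was left out.

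Perp, a p53 target and desmosome protein, was 5.89, 6.50 and 3.74 TPM in dormant KO, with every dormant WT value at 0. It was 2.54, 2.53 and 0 TPM in growing WT and 1.62, 4.47 and 7.20 TPM in growing KO, a range that holds the dormant KO values. The limma adjusted p between the dormant groups was 0.00765, and 0.204 with array weights.

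The desmosome and junction plaque genes Jup (plakoglobin) and Pkp3 (plakophilin 3) were not called. Jup was 9.20 to 16.0 TPM in dormant KO and 0 to 41.8 TPM in dormant WT. Pkp3 was 0.81 to 30.2 TPM in dormant KO and 0 to 1.44 TPM in dormant WT. Both pairs of ranges overlapped.

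Of the epithelial transcription factors, Ehf, an ETS factor, was called and Elf3, another ETS factor, was not. Ehf was 7.56, 5.35 and 1.18 TPM in dormant KO, 1.67, 0 and 0 TPM in dormant WT, and at 0 in each of the 6 growing libraries. The dormant groups overlapped, the difference was 1.82 ± 0.53 (SE, limma adjusted p 0.0254), and the call was lost in 9 of 20 alternative fits (adjusted p up to 0.196), among them those without dormant WT replicate 2 or 3 and without dormant KO replicate 1 or 2. Elf3 was 0 to 3.29 TPM in dormant KO, with dormant WT at 0.

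In the mesenchymal set, the factor Prrx1 (ENSMUSG00000026586, chromosome 1, 163245119 to 163313710) was 8.15, 2.15 and 0.41 TPM in dormant KO against 61.8, 101 and 56.1 TPM in dormant WT. It was 22.6, 35.5 and 28.2 TPM in growing WT and 30.3, 58.2 and 24.5 TPM in growing KO. All dormant KO values lay below the other 9. The difference between the dormant groups was -4.38 ± 0.64 (SE), with a limma adjusted p of 0.000441, and the call held in every alternative fit. The lincRNA Gm26523 overlaps Prrx1 on the same strand and could share its reads: it was 84.5, 0.04 and 5.22 TPM in dormant WT and at most 0.03 TPM in dormant KO.

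Twist1 (ENSMUSG00000035799, chromosome 12, 33957671 to 33959829), a basic helix-loop-helix factor of mesoderm, was 4.86, 0.27 and 7.03 TPM in dormant KO against 30.7, 32.6 and 15.7 TPM in dormant WT. In growing WT it was 27.7, 18.2 and 31.5 TPM, and in growing KO 18.7, 15.6 and 24.8 TPM. Dormant KO again lay below all others, by -2.74 ± 0.67 (SE) against dormant WT (limma adjusted p 0.0105). A fit of these 2 groups alone and array weights each ended the call. Twist2, its paralogue, was listed at 0 in all 6 dormant libraries.

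Vim (ENSMUSG00000026728, chromosome 2, 13573927 to 13582826), the intermediate filament of mesenchymal cells, had the highest TPM of all members in every library except dormant KO replicate 2, where Krt19 was higher. It was 375, 372 and 432 TPM in dormant KO, 734, 639 and 680 TPM in dormant WT, 887, 872 and 909 TPM in growing WT and 932, 870 and 744 TPM in growing KO. The dormant KO values lay below all the others. Ranked by level among all genes, Vim stood between places 205 and 269 in the other 9 libraries and between 373 and 432 in dormant KO. The difference between the dormant groups was -0.80 ± 0.12 (SE, limma adjusted p 0.000536), which is under the size needed for a call, and it was -0.28 with an adjusted p of 0.157 under median-ratio scaling.

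Acta2 (ENSMUSG00000035783, chromosome 19, 34241090 to 34255590) went the other way. It was 27.5, 81.3 and 13.8 TPM in dormant KO, while dormant WT was at 0 throughout. Growing WT had 1.62, 0 and 0 TPM and growing KO 2.66, 4.44 and 2.87 TPM. Between the dormant groups the limma adjusted p was 0.000211. Of 5 smooth muscle markers, Cnn1 was listed at 0 in every library and Myh11 was at most 1.06 TPM, and the sum of the 5 was at most 9.14 TPM anywhere. Of other genes of the contractile apparatus, Tagln was 35.5, 42.9 and 36.7 TPM in dormant KO and Myl9 16.9, 52.5 and 32.2 TPM, with dormant WT at 0 for both (limma adjusted p 3.67e-05 and 0.00051). Tagln passed the filter only through dormant KO.

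Snai2 (Slug) was 1.99, 5.89 and 2.78 TPM in dormant KO with dormant WT at 0 throughout, and 1 library of each growing group was above 0 (1.71 TPM in WT, 1.88 TPM in KO). Its limma adjusted p was 0.0149, and the call was lost without dormant KO replicate 2 (adjusted p 0.0603), with array weights (adjusted p 0.287) and, by its size, with a pseudocount of 5. Snai1 (Snail) was 5.04, 0.89 and 4.65 TPM in dormant KO against 3.92, 22.4 and 71.1 TPM in dormant WT. The values overlapped and the difference of -2.34 ± 0.87 (SE) was not called (limma adjusted p 0.0764, and 0.00488 without dormant WT replicate 1). It ran from -3.36 to -1.42 when 1 library was left out, with a limma adjusted p of up to 0.238.

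The repressors Zeb1 and Zeb2 differed from each other in sign, and neither was called. Zeb1 was 4.74, 4.50 and 2.63 TPM in dormant KO against 1.52, 2.97 and 0 TPM in dormant WT, and the groups overlapped (limma adjusted p 0.132). Zeb2 was 1.94 to 3.42 TPM in dormant KO against 3.54 to 34.3 TPM in dormant WT. The Zeb2 groups did not overlap, by a difference of -1.87 ± 0.80 (SE, limma adjusted p 0.121), which passed the threshold without dormant WT replicate 2 (adjusted p 0.0231) and under quantile normalization. The Zeb2 difference ran from -2.61 to -1.13 when 1 library was left out, with a limma adjusted p of up to 0.29. The antisense gene Zeb2os, at 0 to 3.49 TPM, overlaps Zeb2, and whether the counting used strand is not given in the sources used here.

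**Figure D4:**
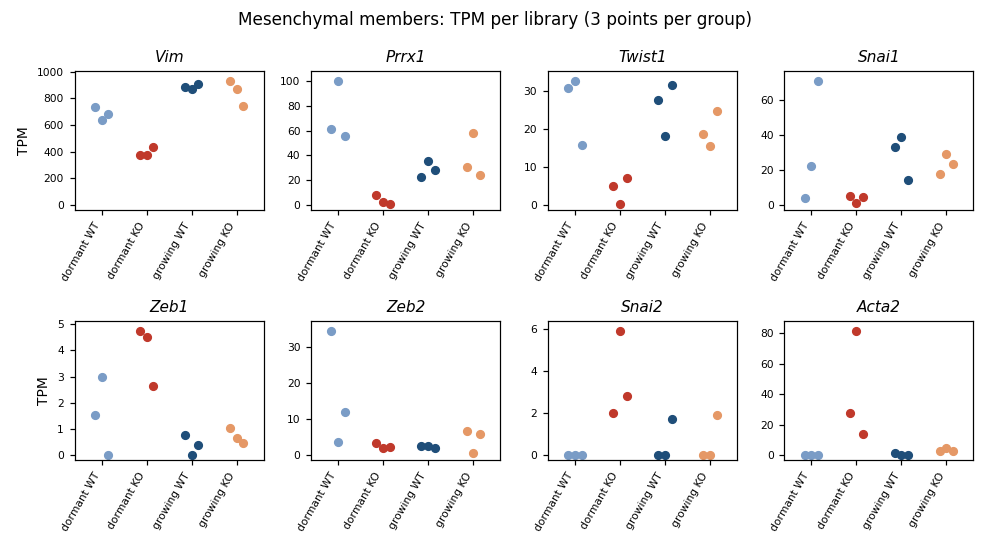
TPM of 8 mesenchymal members by group, with 1 point for each of the 3 libraries and a linear axis from 0 of its own for each gene. Vim, Prrx1 and Twist1 are lowest in dormant KO, Acta2 is highest there at 13.8 to 81.3 TPM, and the 3 dormant WT values of Snai1 (3.92 to 71.1 TPM) and Zeb2 (3.54 to 34.3 TPM) spread widely.

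The comparison of dormant with growing cells in KO hosts lies within 1 batch. In the epithelial set 5 of 17 tested members were higher in dormant KO than in growing KO and 2 were lower, where 8.31% of all tested genes were called higher and 9.48% lower. Of the 5 higher members, 3 (Krt7, Cldn7 and Ehf) passed the filter only through dormant KO, and over the 10 that pass it without dormant KO 2 were higher and 2 lower. The median difference over those 10 was 0.53, beside -0.32 over all genes. In the mesenchymal set 1 of 9 was higher and 4 were lower. This comparison shares the dormant KO libraries with the one above.

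Krt19, Krt7, Cldn7, Ehf and Spint2 were higher, and Krt8 and Krt18 lower. Krt19 differed by 4.51 ± 0.75 (SE, limma adjusted p 0.00132, and 0.0598 with a pseudocount of 0.1, which ended the call) and Krt7 by 4.48 ± 0.51 (SE, limma adjusted p 0.000113). Cldn7 and Ehf were listed at 0 in growing KO, with adjusted p values of 6.9e-05 and 0.0094 in limma, and the Ehf call was lost by its size with a pseudocount of 5. Spint2 differed by 1.67 ± 0.43 (SE, limma adjusted p 0.0184), and lost the call without dormant KO replicate 2, growing KO replicate 2 or growing KO replicate 3 (adjusted p 0.062 to 0.0767). Krt18 differed by -1.39 ± 0.25 (SE, limma adjusted p 0.00203) and Krt8 by -1.58 ± 0.35 (SE, limma adjusted p 0.00761), so both chains of the Krt8 and Krt18 pair were lower in the dormant cells of KO hosts. Median-ratio scaling ended both of these calls, at -0.79 for Krt18 and -0.99 for Krt8, and the median of all genes moved from -0.32 to 0.09 with it. Relative to the median of all genes as deposited, Krt18 was lower by -1.06 and Krt8 by -1.26.

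Of the mesenchymal members, Prrx1 was lower in dormant than in growing KO cells by -3.39 ± 0.64 (SE, limma adjusted p 0.00296), and Twist1 by -2.38 ± 0.67 (SE, limma adjusted p 0.0264). The Twist1 call was lost in 7 of 21 alternative fits (adjusted p 0.0542 to 0.0928), among them those without dormant KO replicate 2 or any growing KO library. Twist2 was listed at 0 in dormant KO and was 5.84, 2.91 and 2.85 TPM in growing KO (limma adjusted p 0.00862), and this call was lost by its size with a pseudocount of 5. Vim was lower by -1.11 ± 0.12 (SE, limma adjusted p 8.98e-05) and by -0.78 relative to the median of all genes. Its difference fell under the size threshold with median-ratio scaling (-0.51) and quantile normalization (-0.81). Acta2 was higher by 2.94 ± 0.66 (SE, limma adjusted p 0.00842, and 0.0821 with a pseudocount of 0.1, which ended the call).

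Snai1, Snai2 and Zeb1 did not overlap between the 2 groups and were not called. Snai1 was 17.8 to 29.3 TPM in growing KO, above dormant KO (difference -2.58 ± 0.87, SE, limma adjusted p 0.0618, and 0.013 and 0.0212 without dormant WT replicate 1 or 3). Zeb1 was 0.46 to 1.02 TPM in growing KO, below dormant KO (difference 1.52 ± 0.52, SE, limma adjusted p 0.0646, and 0.0302 and 0.0226 without dormant WT replicate 2 or 3). Snai2 differed by 1.59 ± 0.54 (SE, limma adjusted p 0.0638), and by an adjusted p of 0.0455 without growing WT replicate 3 and 0.0205 without growing KO replicate 3. Leaving out other libraries gave limma adjusted p values of up to 0.198 for Snai1, 0.17 for Zeb1 and 0.201 for Snai2.

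**Figure D5:**
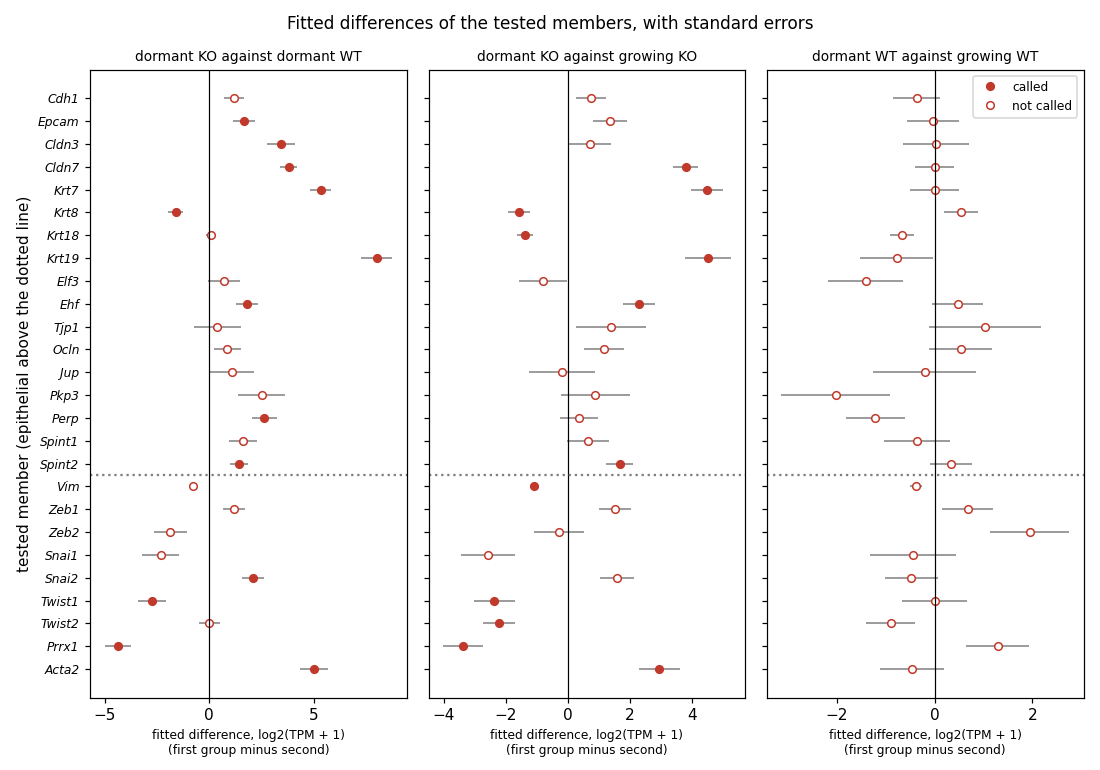
Fitted differences on the log2(TPM + 1) scale (points) with standard errors (lines) of the 26 tested members in 3 comparisons, with filled points called, open points not called, and a horizontal axis of its own in each panel. For a gene listed at 0 in 1 of the 2 groups (such as Krt7 and Cldn7 against dormant WT) the plotted difference depends on the pseudocount of 1. Filled points stand on both sides of 0 in both comparisons of dormant KO, and no point is filled in the comparison of dormant WT with growing WT.

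In WT hosts, the same comparison of states also lies within 1 batch. No member of either set was called between dormant WT and growing WT in limma, where 1.85% of all tested genes were called higher and 5.67% lower. At an unadjusted p under 0.05 there were 1 epithelial and 2 mesenchymal members of 26 tested (Krt18, Vim and Zeb2), where 23.9% of all tested genes were under it. Krt18 differed by -0.67 ± 0.25 (SE, limma adjusted p 0.119) and Vim by -0.38 ± 0.12 (SE, limma adjusted p 0.0774), and neither overlapped between the groups. The Vim difference was -0.03 relative to the median of all genes (-0.35). Zeb2 differed by 1.95 ± 0.80 (SE, limma adjusted p 0.167), and by an adjusted p of 0.0433 without dormant WT replicate 2. Its difference ran from 1.21 to 2.69 when 1 library was left out, with a limma adjusted p of up to 0.336. Prrx1 was higher in all 3 dormant WT libraries than in all 3 growing WT libraries, by 1.29 ± 0.64 (SE, limma adjusted p 0.249). Krt7 and Cldn7 were at 0 in both states in WT hosts. The macrophage and leukocyte sum was 1297 to 1766 TPM in dormant WT against 97.1 to 120 TPM in growing WT, with 6 of 10 tested markers called higher, and its part in these differences was not tested.

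Between growing KO and growing WT cells no member of either set was called in limma, where 0.715% of all tested genes were called higher and 0.261% lower. At an unadjusted p under 0.05 there were 3 epithelial members (Cldn3, Krt18, Krt19) and 2 mesenchymal ones (Acta2, Twist2) of 26 tested, all higher in growing KO, where 7.53% of all tested genes were under it. Krt18 differed by 0.81 ± 0.25 (SE, limma adjusted p 0.261) and did not overlap. Krt19 differed by 2.74 ± 0.75 (SE, limma adjusted p 0.171, and 0.0117 without growing WT replicate 2). Cldn3 was listed at 0 in growing WT (limma adjusted p 0.108, and 0.0469 without dormant KO replicate 2). Leaving out other libraries gave limma adjusted p values of up to 0.655 for Krt19 and 0.382 for Cldn3. Acta2 differed by 1.63 ± 0.66 (SE, limma adjusted p 0.542). The growing KO libraries were also above growing WT in the summed markers of 7 lists of host cell types, whose part was not tested. The sums were 459 to 468 against 56.1 to 97.6 TPM for alveolar type 2, 351 to 403 against 305 to 332 TPM for alveolar type 1, 1144 to 1197 against 297 to 326 TPM for club and ciliated, and 95.8 to 178 against 21.1 to 26.7 TPM for mesothelial markers. They were 350 to 409 against 68.8 to 111 TPM for fibroblast and pericyte, 48.2 to 62.4 against 9.17 to 13.9 TPM for endothelial, and 182 to 262 against 97.1 to 120 TPM for macrophage and leukocyte markers. Of these markers, 2 of 10 tested alveolar type 2, 2 of 9 club and ciliated, 3 of 11 mesothelial, 2 of 12 fibroblast and pericyte and 1 of 10 macrophage and leukocyte markers were called higher.

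The interaction of state and host asks whether dormant and growing cells differed by another amount in KO than in WT hosts. It was called higher for 3 of 17 epithelial members (Krt7, Krt19, Cldn7) and lower for 1 (Krt8), where 6.18% of all tested genes were called higher and 3.91% lower. Krt7 and Cldn7 passed the filter only through dormant KO. In the mesenchymal set it was called higher for Acta2 and lower for Prrx1, of 9 tested. Krt19 had an interaction of 5.29 ± 1.05 (SE, limma adjusted p 0.00823), Krt8 of -2.12 ± 0.49 (SE, limma adjusted p 0.0183) and Prrx1 of -4.68 ± 0.91 (SE, limma adjusted p 0.00717). The limma adjusted p was 0.00281 for Krt7, 0.0018 for Cldn7 and 0.0397 for Acta2. The Krt19 call was lost with a pseudocount of 0.1 (adjusted p 0.125) and with array weights (adjusted p 0.0955). The Krt8 value passed the threshold except without growing KO replicate 1 (adjusted p 0.0527). The Acta2 call was lost in 12 of 20 alternative fits, among them those without dormant KO replicate 1 or 2 or any single growing library (adjusted p 0.0625 to 0.108). Twist1 had an interaction of -2.38 ± 0.94 (SE) that was not called (limma adjusted p 0.147). For Vim it was -0.73 ± 0.17 (SE, limma adjusted p 0.0191), under the size threshold, and the adjusted p was 0.574 under median-ratio scaling.

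A wider list of 50 other epithelial genes, 49 of them in the table and 24 tested, was described in the same way: 10 were higher and 1 lower in dormant KO against dormant WT (beside 12.9% and 9.39% of all tested genes), and 7 higher and 1 lower than in growing KO (beside 8.31% and 9.48%). Of the higher ones, 9 of the 10 and all 7 were tested only through their dormant KO values, Crb3, Muc1 and Mal2 among them, and over the 11 genes that pass the filter without dormant KO 1 was higher and 1 lower against dormant WT, and 0 higher and 1 lower against growing KO. The polarity gene Crb3 was 33.2, 10.01 and 21.2 TPM in dormant KO while both WT groups were at 0 (limma adjusted p 0.000244 between the dormant groups). The mucin Muc1 was 20.9, 12.8 and 5.97 TPM in dormant KO, again with both WT groups at 0 (limma adjusted p 0.00097). The junctional adhesion molecule F11r was 61.2, 85.0 and 75.7 TPM in dormant KO against 18.9, 0 and 16.3 TPM in dormant WT, a difference of 3.41 ± 0.93 (SE, limma adjusted p 0.0197) that was lost in 5 of 21 alternative fits (adjusted p 0.0506 to 0.146), among them those without dormant KO replicate 2 or 3. The F11r difference was 2.003 without dormant WT replicate 2, the library at 0. The claudin Cldn12 went down, at 0.25, 0.06 and 0.01 TPM in dormant KO against 34.2, 5.31 and 2.02 TPM in dormant WT (difference -2.99 ± 0.80, SE, limma adjusted p 0.0178), lost in 5 of 21 alternative fits (adjusted p 0.0504 to 0.121), among them those without dormant KO replicate 2 or 3. Against growing KO, the largest called differences of the list were 3.70 for Crb3, 3.04 for Mal2 (a trafficking protein), 2.96 for Muc1 and -3.47 for Cldn12.

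A list of 40 other mesenchymal genes, 35 tested, split in both directions: 9 were higher and 6 lower in dormant KO against dormant WT, beside 12.9% and 9.39% of all tested genes, and 9 higher and 5 lower than in growing KO, beside 8.31% and 9.48%. Of the higher ones, 3 (Cdh11, Mmp2 and Tagln) and 4 (these and Thy1) were tested only through dormant KO, and over the 29 genes that pass the filter without it 6 were higher and 6 lower, and 5 higher and 5 lower. The higher ones were led by matrix genes of fibroblasts. Decorin (Dcn) was 1098, 1324 and 1094 TPM in dormant KO against 4.39, 0 and 0 TPM in dormant WT (difference 9.38 ± 0.60, SE, limma adjusted p 1.39e-06). The collagen Col3a1 was 140, 196 and 155 TPM in dormant KO, with dormant WT at 0 (limma adjusted p 2.07e-06), and Fstl1 differed by 6.15 ± 0.63 (SE, limma adjusted p 4.28e-05). Dcn and Col3a1 are also among the fibroblast and pericyte markers.

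The lower ones were led by Fn1 (fibronectin), which was 22.1, 24.5 and 22.7 TPM in dormant KO against 297, 368 and 304 TPM in dormant WT, with no overlap (difference -3.75 ± 0.26, SE, limma adjusted p 2.33e-06). The collagen Col5a1 differed by -3.12 ± 0.61 (SE, limma adjusted p 0.00286) and the AP-1 factor Fosl1 by -2.98 ± 0.43 (SE, limma adjusted p 0.00037). Against growing KO, the largest called differences of the list were 5.25 for Tagln (tested only through dormant KO, and 3.10 to 8.27 over the alternative fits), 3.58 for Myl9 (not called with a pseudocount of 0.1, adjusted p 0.0612), 3.41 for Fstl1, -3.58 for Fosl1, -2.22 for S100a4 and -2.18 for Lgals1. In WT hosts Fn1 was higher in dormant than in growing cells by 2.16 ± 0.26 (SE, limma adjusted p 0.000562), Tgfbi (a matrix protein) higher by 3.66 ± 0.72 (SE, limma adjusted p 0.0104, and 0.0506 in a fit of these 2 groups alone) and Dcn lower by -2.98 ± 0.60 (SE, limma adjusted p 0.0119, and lost without growing WT replicate 2, in a fit of these 2 groups alone and with array weights, at 0.0566, 0.148 and 0.058). The macrophage and leukocyte sum given above also differed between these groups, and its part was not tested. Between the growing groups 2 of 35 were called, where 0.715% of all tested genes were called higher: Dcn and Col3a1, both higher in growing KO and named here after their values were seen. The Dcn call was lost with a pseudocount of 0.1 (adjusted p 0.185).

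The split of calls over all genes depended on the scaling. Between the dormant groups 1677 genes were called higher and 1221 lower as deposited, 2289 higher and 804 lower under median-ratio scaling (5729 genes), and 1513 higher and 1508 lower under quantile normalization. The median of all genes in this comparison was 0.17, 0.50 and -0.14 in turn. Between dormant KO and growing KO the calls were 1080 higher and 1233 lower as deposited and 1491 higher and 663 lower under median-ratio scaling. For the interaction they were 803 higher and 509 lower as deposited and 1130 higher and 299 lower under median-ratio scaling, and between dormant WT and growing WT 240 higher and 737 lower as deposited and 489 higher and 478 lower under quantile normalization. None of the 31 called differences of members changed sign in any alternative fit.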

How the data were processed

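Libraries were made from cells sorted by GFP and CVC, and 12 libraries in 4 groups of 3 were used. Labels number the libraries within a group, and the study describes biological triplicates. The authors trimmed reads with Cutadapt, aligned them to mm10 with STAR and estimated gene levels with RSEM. The submitters' processing notes name Cutadapt 1.18, STAR 2.5.2b, RSEM 1.3.3 and bcl2fastq 2.20, and the paper's methods give other versions of Cutadapt and RSEM. The values deposited by the authors are TPM per gene, which the RSEM model can split between overlapping or near-identical genes. A TruSeq mRNA kit is named in the labels and another protocol in the paper's methods, so the library chemistry is uncertain. The table also held 30 per-sample columns of no labelled sample used here, which were left out. Coordinates are from GENCODE M21 (GRCm38, the same assembly as mm10).

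The main test was limma 3.58.1 in R 4.3.3 on log2(TPM + 1) of all 12 libraries with 1 mean per group, a mean-variance trend, a filter of at least 1 TPM in at least 3 libraries, 8 residual degrees of freedom and Benjamini-Hochberg adjustment over 13002 genes. TPM carries no depth, so count tests were not used. With 3 against 3 the smallest 2-sided exact permutation p is 0.1, so no such test was used. None of 15 widely expressed genes was listed at 0 in any library, but an exact 0 can still be an estimate that failed or a transcript missed in few cells. The paper's methods describe a small aliquot of sorted cells per library, so a value of 0 does not show that a transcript was absent. All members were named. Most that were called without overlap, or were defining, have values in every library, and the rest have fewer. Of the wider lists, up to 3 genes each way were named. Alternatives changed the pseudocount (0.1 or 5), the filter (none or 5 TPM), the scaling, the libraries fitted, the weights and the replicate block. The members and lists were chosen with earlier results of these data known. A result on 1 gene of the wider lists is not reported here.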

Additional observations from a re-analysis of the deposited data

Results flagged for a closer look

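For 6 members, the difference between dormant and growing cells was not the same in KO and in WT hosts by the interaction term of the limma fit, on the log2(TPM + 1) scale. The term was 5.29 for Krt19, 4.48 for Krt7, 3.80 for Cldn7 and 3.40 for Acta2, and -2.12 for Krt8 and -4.68 for Prrx1. The values of Krt7, Cldn7 and Acta2 rest on groups listed at 0, so their size depends on the pseudocount. Of 20 alternative fits, the Acta2 call was lost in 12, the Krt19 call in 2 and the Krt8 call in 1. Krt7 and Cldn7 were tested only through dormant KO. Host and library batch cannot be told apart in this term. The summed alveolar type 2 markers moved with it too, at 40152 to 42510 TPM in dormant KO and at most 468 TPM in any other library, and their part was not tested.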

How the results depend on the processing

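Of 31 called differences of members, 11 kept the call in every alternative fit that gave a value, 20 lost it in at least 1, and 0 changed sign. The calls kept throughout were Krt7, Cldn7 and Prrx1 (each in both dormant KO comparisons and the interaction), Krt19 and Acta2 (between the dormant groups), but Cldn7 fell under the filter and gave no value in the 3 fits that leave out a dormant KO library. Krt7 and Cldn7, with 6 of these 11 calls, passed the filter only through dormant KO, where they are high. Between the dormant groups, array weights gave 4 epithelial and 2 mesenchymal calls (9 and 4 in the main analysis), while calls over all genes went from 2898 to 1418. Leaving out 1 library gave 6 to 8 and 3 to 6, while calls over all genes ran from 2160 to 3617. Between the growing groups no member was called in the main analysis (127 calls over all genes). A pseudocount of 0.1 gave 1 epithelial call (134 over all genes), array weights 2 (516) and leaving out 1 library 0 to 1 (66 to 163). Between the states in WT hosts, quantile normalization gave 1 mesenchymal call (967 over all genes, 977 in the main analysis) and leaving out 1 library 0 to 1 (447 to 1918). Between the states in KO hosts, a pseudocount of 0.1 gave 3 mesenchymal calls (5 in the main analysis). Over all genes it gave 1981 calls against 2313. For the mesenchymal interaction (2 calls), a pseudocount of 0.1, no filter, array weights and the replicate block each gave 1, and leaving out 1 library gave 1 to 3. Over all genes the interaction calls were 1240, 1085, 879 and 1048 in these fits in turn. They were 861 to 1937 with 1 library left out and 1312 in the main analysis. The cause of these changes was not tested. The difference of Krt18 between the dormant groups turned to -0.013 with array weights and ranged from -0.12 to 0.29 when 1 library was left out.

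Correlations between the deviations of libraries with the same replicate number were -0.0136 to 0.0206 across genes over the 12 same-numbered pairs. Each dormant KO library correlated best with the growing KO library of its own number (0.0109 to 0.0206). Libraries of different numbers reached 0.0332 (growing WT replicate 3 with growing KO replicate 1). These values do not settle whether libraries were paired. With the replicate block the epithelial calls were 8, 7, 0, 0 and 4 between the dormant groups, between the states in KO and in WT hosts, between the growing groups and for the interaction (9, 7, 0, 0 and 4 without it; the call lost between the dormant groups was Spint2, adjusted p 0.0558), and the mesenchymal ones 4, 5, 0, 0 and 1. Over all genes the calls with the block were 2722, 2116, 751, 86 and 1048 in the same order (2898, 2313, 977, 127 and 1312 without it). The interaction could not be fitted on 2 groups alone. The unknown depth limits what can be said of members near 0.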
